A study of Homo sapiens with 8 samples.

Results

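PC9 cells derive from a human adenocarcinoma of the lung and are epithelial. The broad domains described here were 603 genomic regions of 40 kb or more in these cells that carried trimethylation of lysine 27 of histone H3 (H3K27me3). They were selected on the measured island lengths of a single library. A member is an island, that is, a continuous stretch of windows of 200 bp that were enriched for sequencing tags, in the spike-in list of the H3K27me3 library DMSO replicate 1. Its length had to be 40 kb or more, and it had to overlap an island of DMSO replicate 2 by at least 1 bp. All 603 islands of 40 kb or more met the overlap condition, so they were 603 of 35901 islands in all (1.68%), and they made up 14.3% of the length that these islands covered. The cells had received either DMSO, the vehicle, or 1 μM GSK126, a small molecule inhibitor of the methyltransferase EZH2, for 5 days, and all of them were of the same cell line with no other allele or agent named. ChIP-seq was performed for H3K27me3 and for H3K4me3, with 2 libraries of each treatment and mark, numbered as replicates 1 and 2. D. melanogaster chromatin and an antibody against the fly histone H2Av had been added to each reaction as a spike-in. Because the member list was read from DMSO replicate 1, the DMSO values of that library are a description and not a result.

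H3K27me3 is written by Polycomb repressive complex 2 (PRC2), of which EZH2 is the catalytic subunit. PRC2 binds its own product, which allows the mark to spread from sites of recruitment, and in mammals these sites are often rich in CpG dinucleotides. The mark is known for keeping developmental genes silent, whereas H3K4me3 marks the start sites of active genes and of genes poised for activation.

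The data for each library were lists of islands with a score. Under standard normalization the paired DMSO and GSK126 libraries had been brought to equal human tag numbers, whereas under spike-in normalization human tags had been taken out of the GSK126 library by a factor from the fly tags. The tag density behind the H3K27me3 lists, which could be read from the scores, lay between 0.382 and 2.33 tags per window of 200 bp, with the lowest values in the GSK126 spike-in lists. H3K4me3 islands covered 85.2 Mb in DMSO replicate 1 and 39.96 Mb in DMSO replicate 2, so the replicates of this mark differed in depth or enrichment, and values are given for each replicate. The start sites of 9 of 9 epithelial marker genes lay in an H3K4me3 island in both DMSO libraries. Of 12 markers of blood, endothelium, fibroblast and muscle, 1 (CD14) did so and 9 had no H3K4me3 island in either library.

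Domain length ranged from 40 kb to 347 kb with a median of 54.2 kb, and 63 domains were 100 kb or longer. At the length limit, 28 domains were 40 to under 41 kb long and 25 islands were 39 to under 40 kb long. With GSK126 in the spike-in lists, the former were covered over 74.6% and 74.9% of their length in replicates 1 and 2, and the latter over 82.1% and 84.7%. One of the islands just outside the limit, chr20:62765201-62805000 with a length of 39.8 kb, held the start of MYT1, which encodes a neural zinc finger protein. Its density was 15.7 and 22.5 tags per window with DMSO, and 5.05 and 8.65 with GSK126. The start of CCND2, a cyclin gene, lay in a domain. All coordinates are given for hg19 (GRCh37).

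The sequences of a few windows are shown as single examples from domains with very high or very low cover with GSK126. They do not stand for all windows, and a window outside GSK126 islands may still carry the mark. Each is 200 bases of the hg19 forward strand with every CpG in capitals. The first 3 windows come from 3 of the 5 domains that were most completely covered with GSK126, and each is the window nearest to the centre with the domain's median number of CpGs. The first lies in an intron of PRDM16, the second between genes, and the third in an intron of TAFA5.
chr1:3194001-3194200: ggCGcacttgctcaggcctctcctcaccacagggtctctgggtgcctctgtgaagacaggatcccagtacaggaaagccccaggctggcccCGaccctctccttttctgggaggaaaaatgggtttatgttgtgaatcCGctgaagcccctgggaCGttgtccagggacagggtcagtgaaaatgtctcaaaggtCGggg
chr7:464801-465000: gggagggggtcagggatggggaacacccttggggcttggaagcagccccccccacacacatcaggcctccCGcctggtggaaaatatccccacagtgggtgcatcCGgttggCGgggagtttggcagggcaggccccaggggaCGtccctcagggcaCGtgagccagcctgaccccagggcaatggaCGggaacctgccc
chr22:48931401-48931600: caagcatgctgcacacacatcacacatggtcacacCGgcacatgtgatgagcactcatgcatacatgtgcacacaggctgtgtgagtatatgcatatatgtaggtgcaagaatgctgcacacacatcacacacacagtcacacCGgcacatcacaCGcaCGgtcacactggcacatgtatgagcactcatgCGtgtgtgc
The following 2 windows lie in the domains that kept the least cover, within the longest stretch that no GSK126 spike-in island covered in either replicate, and were chosen by the same median rule. These stretches were 19.4 kb and 9.4 kb long, and both windows lie outside protein-coding genes.
chr14:75818001-75818200: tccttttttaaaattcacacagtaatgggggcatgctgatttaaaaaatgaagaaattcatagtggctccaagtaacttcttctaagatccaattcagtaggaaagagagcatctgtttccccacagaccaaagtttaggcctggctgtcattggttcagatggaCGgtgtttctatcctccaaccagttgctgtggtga
chr22:39939601-39939800: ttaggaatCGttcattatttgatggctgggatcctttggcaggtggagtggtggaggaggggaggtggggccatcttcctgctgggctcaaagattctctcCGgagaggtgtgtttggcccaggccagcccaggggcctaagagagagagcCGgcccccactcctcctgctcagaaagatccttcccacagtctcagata
The windows that stayed covered hold 5, 6 and 5 CpGs, and the windows in no GSK126 spike-in island hold 1 and 3. The last pair are the windows directly upstream of the start of EN2, a homeobox gene whose domain kept nearly all of its cover, and of CACNA1I, a T-type calcium channel gene whose domain kept little of it. The start lies 24 bases beyond the window for EN2 and 158 bases beyond it for CACNA1I.
chr7:155250601-155250800: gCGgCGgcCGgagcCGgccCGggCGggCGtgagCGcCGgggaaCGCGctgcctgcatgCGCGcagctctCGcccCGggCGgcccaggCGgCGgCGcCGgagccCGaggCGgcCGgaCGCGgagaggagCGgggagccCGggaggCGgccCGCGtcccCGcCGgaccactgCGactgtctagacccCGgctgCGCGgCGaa
chr22:39966401-39966600: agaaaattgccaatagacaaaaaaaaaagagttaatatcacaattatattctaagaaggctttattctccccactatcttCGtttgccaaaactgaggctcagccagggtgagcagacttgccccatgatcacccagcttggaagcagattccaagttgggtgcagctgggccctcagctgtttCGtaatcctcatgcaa
The EN2 window has 37 CpGs and lay in a GSK126 spike-in island in both replicates. The CACNA1I window has 2 CpGs and lay in no GSK126 spike-in island. Both lay in an island in both DMSO libraries.

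The first question was how much of the domains remained marked after EZH2 inhibition. Every domain overlapped an H3K27me3 island with GSK126 in the spike-in lists, 603 of 603 in replicate 1 and 603 of 603 in replicate 2. Of all 35901 islands 40% and 37.2% did so, but a longer region overlaps more readily. Among the islands of 20 to under 40 kb that both DMSO libraries shared, 99.6% and 99.1% did. In bulk ChIP, fewer cells with the mark and less of it per cell cannot be told apart. GSK126 islands covered at least 50% of the length of 586 domains in replicate 1 and 588 in replicate 2. Among all islands this share was 28.0% and 28.8%. The covered length was 85.2% and 87.5% of the total domain length, or 86.4% ± 1.60 (SD, n = 2). DMSO replicate 2 covered 98.8% in its spike-in list. On the log2 scale the covered length with GSK126 relative to DMSO was -0.23 and -0.18. In replicate 1 the DMSO cover was fixed at 100% by the selection, so this ratio could not rise, and only the replicate 2 ratio rests on a DMSO library that did not set the lengths. In the standard normalization GSK126 islands covered 98.2% and 95.1% of the domain length, with log2 ratios of -0.02 and -0.04. With 2 replicate pairs an exact sign-flip test cannot go below p = 0.5, so no p-value is given for comparisons of the treatments.

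**Figure D1:**
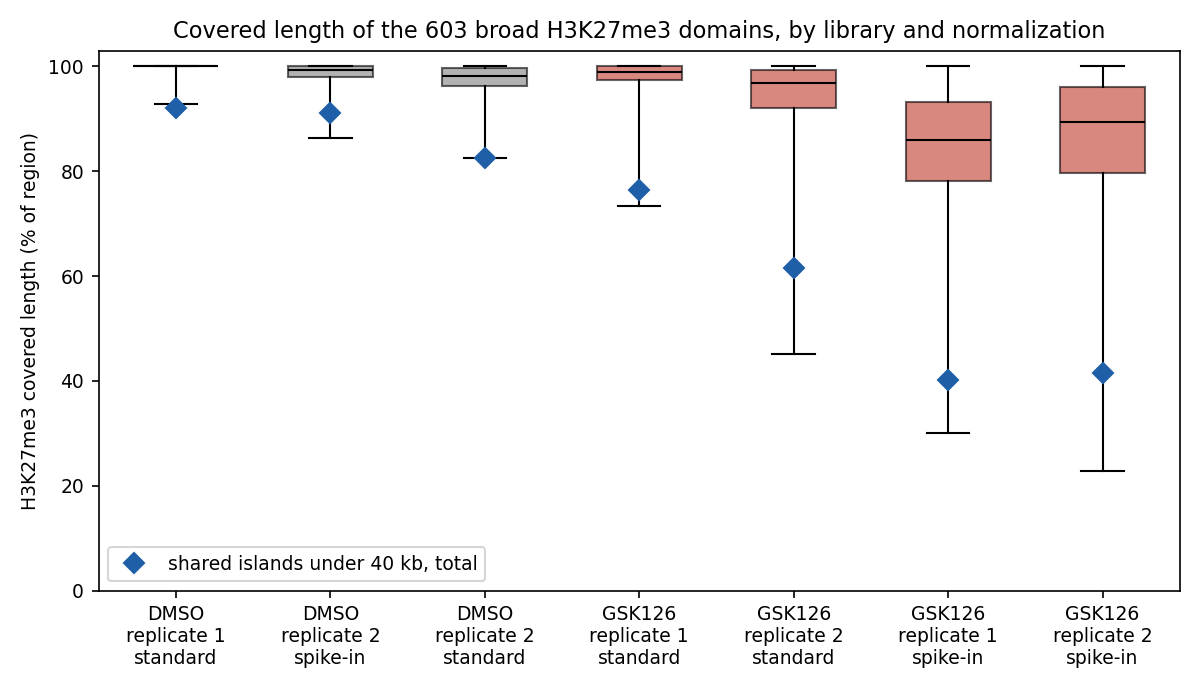
Share of each of the 603 domains covered by H3K27me3 islands (y axis, percent of length), by library and normalization (x axis). Boxes give the quartiles and median over domains, whiskers the lowest and highest domain, and diamonds the cover of all shared islands under 40 kb together. The medians with GSK126 in the spike-in lists were 86.0% and 89.3%, whereas the diamonds lie at 40.2% and 41.5%.

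The domains were kept more completely than shorter islands. The 31876 islands under 40 kb that both DMSO libraries shared were covered over 40.2% and 41.5% of their length in the GSK126 spike-in lists, 45.5 ± 0.630 percentage points (SD, n = 2) less than the domains. In the spike-in list of DMSO replicate 2 they were covered over 91.2%, beside 98.8% for the domains. With GSK126 in the standard lists it was 76.5% and 61.5%, beside 98.2% and 95.1%, so part of the difference was present without the spike-in factor. The difference in the GSK126 spike-in lists shrank to 15.9 percentage points against the 1633 shared islands of 20 to under 40 kb. Against shorter islands with a like score per kb in DMSO replicate 1 it was 10.7 percentage points. Cover also increased with length among the domains. The 379 domains under 60 kb were covered over 80.7% and 83.6%, the 161 domains of 60 to under 100 kb over 87.6% and 88.9%, and the 63 longer ones over 91.4% and 93.7%. The length was measured in DMSO replicate 1, which is shared by the comparison in that replicate but not by replicate 2.

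Although every domain kept some cover, most of them were split into several islands in the GSK126 spike-in lists. These lists held 0.382 and 0.455 tags per window, compared to 1.65 and 2.33 with DMSO. The part of this lower density in the splitting was not tested. An island of 40 kb or more remained at 162 domains in GSK126 replicate 1 and at 241 in GSK126 replicate 2 of the spike-in lists, or 33.4% ± 9.26 of the domains (SD, n = 2). DMSO replicate 2 had such an island at 535 domains. The median domain held 4 and 3 islands with GSK126, and the longest piece within it spanned 43.3% and 54.5% of its length. A single island was found at 47 and 119 domains with GSK126, compared to 385 in DMSO replicate 2. The numbers in the standard lists were 356 and 262 with GSK126 and 519 and 284 with DMSO, of which DMSO replicate 1 was tied to the selection. In these lists the median domain held 1 island in replicate 1 and 2 islands in replicate 2 under either treatment. With GSK126, 187 domains held 5 or more islands in replicate 1 and 91 did so in replicate 2 of the spike-in lists, compared to 1 in DMSO replicate 2. In the standard lists 496 and 395 domains kept an island of 40 kb or more with GSK126, compared to 571 and 455 with DMSO.

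The cover was lost from the edges inwards and from gaps within the domains. Windows less than 1 kb from an edge were covered at 44.3% and 46.4% in the GSK126 spike-in lists, and windows over 20 kb from an edge at 91.1% and 93.2%. In DMSO replicate 2, whose islands did not set the edges, the same windows were covered at 88.9% and 99.5%. Of the lost length, 35.9% in replicate 1 and 44.8% in replicate 2 lay beyond the first or last covered window, and the rest lay inside. The median domain lost 2.4 kb and 2.2 kb at both ends together. The loss at the edges was far smaller in the standard lists. There the outer 1 kb was covered at 85.4% and 67.3% with GSK126, compared to 97.1% and 82.2% with DMSO, and the median loss at the ends was 0 kb and 0.6 kb. CpG density was also lower near the edges, with 3.10 CpGs per window in the outer 1 kb and 3.79 over 20 kb from an edge, and the part of this in the loss was not tested.

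**Figure D2:**
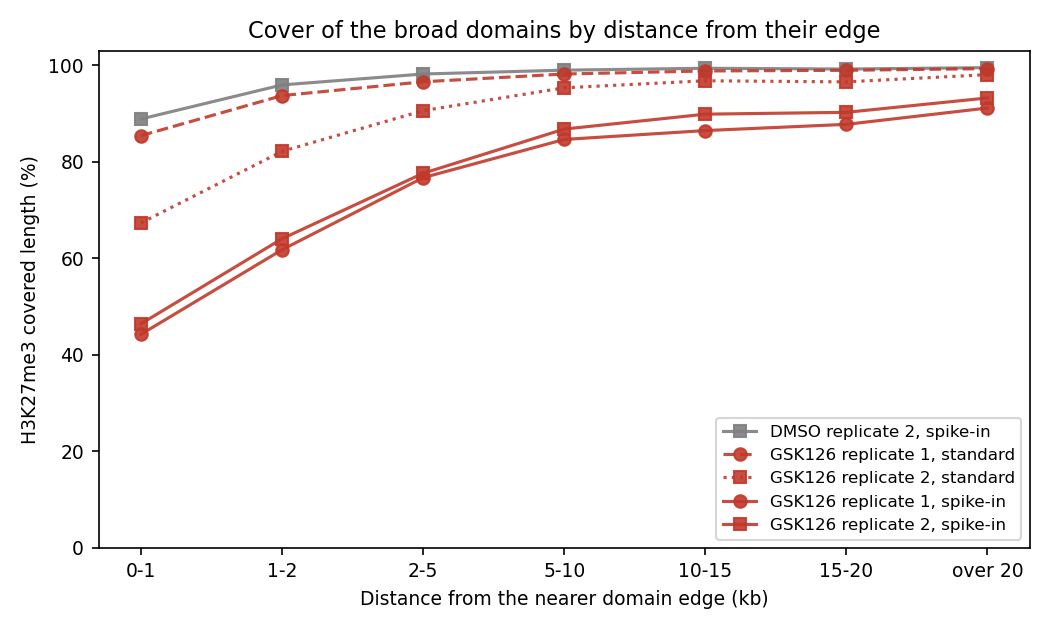
Share of windows covered by H3K27me3 islands (y axis, percent) by distance from the nearer domain edge (x axis, kb), for DMSO replicate 2 and for both GSK126 replicates under each normalization; each line is 1 library and list. The GSK126 spike-in lines start at 44.3% and 46.4% in the outer 1 kb and reach 91.1% and 93.2% over 20 kb from an edge.

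Over all domains together, the windows that stayed covered held more CpGs than those that were lost. They had 3.85 and 3.83 CpGs per window in replicates 1 and 2, compared to 2.75 and 2.66 in the lost windows, a difference of 1.14 ± 0.0551 (SD, n = 2). This pooled value also holds differences between domains. Within single domains that had at least 10 kept and 10 lost windows, the median difference was 0.822 over 544 domains in replicate 1 and 0.81 over 479 in replicate 2. It was above 0 in 448 and 386 of them, and in 345 of the 470 domains that could be compared in both replicates it was above 0 in both. For windows over 2 kb from any gene start the difference was 1.16 and 1.22. Windows with no CpG were covered at 73.3% and 77.1%, and the share increased with CpG number up to 92.7% and 94.3% at 8 to 11 CpGs. Windows with 12 or more CpGs, the range of CpG islands, were covered at 89.3% and 92.1%, below the class before them. Windows within 1 kb of the start of a protein-coding gene were covered at 84.4% and 86.8%, close to the average of the domains. GC content differed as well, at 51.96% and 51.9% in kept windows and 47.0% and 46.5% in lost windows. The part of GC content in the difference was not tested.

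Cover alone does not show how strongly a region was marked. The score of an island is the summed negative log probability of its tag counts under a Poisson background, and the score per window was therefore converted into the constant tag density that would give it. This measure, in tags per window, was added after values had been seen. In the spike-in normalization the median density of the domains was 12.4 and 17.4 tags per window with DMSO, and 3.57 and 5.21 with GSK126. The density fell in 603 of 603 domains in replicate 1 and in 603 of 603 in replicate 2. Of the 32479 islands that the DMSO libraries shared it fell in 100% and 100% (32479 and 32475). An island that overlapped no GSK126 island counts there as a fall, and of those under 5 kb only 20.2% and 17.5% overlapped one. Among the 1633 islands of 20 to under 40 kb, 99.6% and 99.1% overlapped one and 0% were higher with GSK126. The direction was therefore not particular to the domains. The median log2 change over the domains was -1.78 and -1.72, or -1.75 ± 0.0418 (SD, n = 2), which is 3.43 and 3.30 times lower. Over the whole genome the tag density was -2.11 and -2.35 on the log2 scale, so the domains lost less than the average window. The size of the fall is set by 1 fly-tag factor per replicate. This factor is shared by all domains, so it shifts them together, apart from windows that drop out of islands. The tag density behind the GSK126 spike-in lists was 0.231 and 0.196 of that with DMSO. These ratios equal the paper's factors from tags over the whole fly genome. The paper's primary factors, from H2Av-bound regions, were higher in both replicates, and most of all in replicate 2. With those the fall would be smaller and its SD would differ, which was not tested.

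In the standard normalization, where both libraries of a replicate had the same tag density, the order was reversed. The median density was 9.89 and 11.6 tags per window with DMSO and 12.9 and 18.1 with GSK126, and the median log2 change was 0.38 and 0.66. It was higher with GSK126 in 546 domains in replicate 1 and in 545 in replicate 2, in 531 of them in both. Among all islands shared by the DMSO libraries 34.8% and 31.0% were higher, and among those of 20 to under 40 kb 70.4% and 69.1% were. An island that overlapped no GSK126 island counts as lower here. Of the islands under 5 kb 55.4% and 41.9% overlapped one, and of those of 20 to under 40 kb 100% and 99.9% did. Relative to the genome mean, the median domain had 7.51 and 7.48 times the density with DMSO in the spike-in lists, and 9.33 and 11.4 times with GSK126. A larger share of the remaining tags therefore fell into the domains with GSK126, in both replicates.

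**Figure D3:**
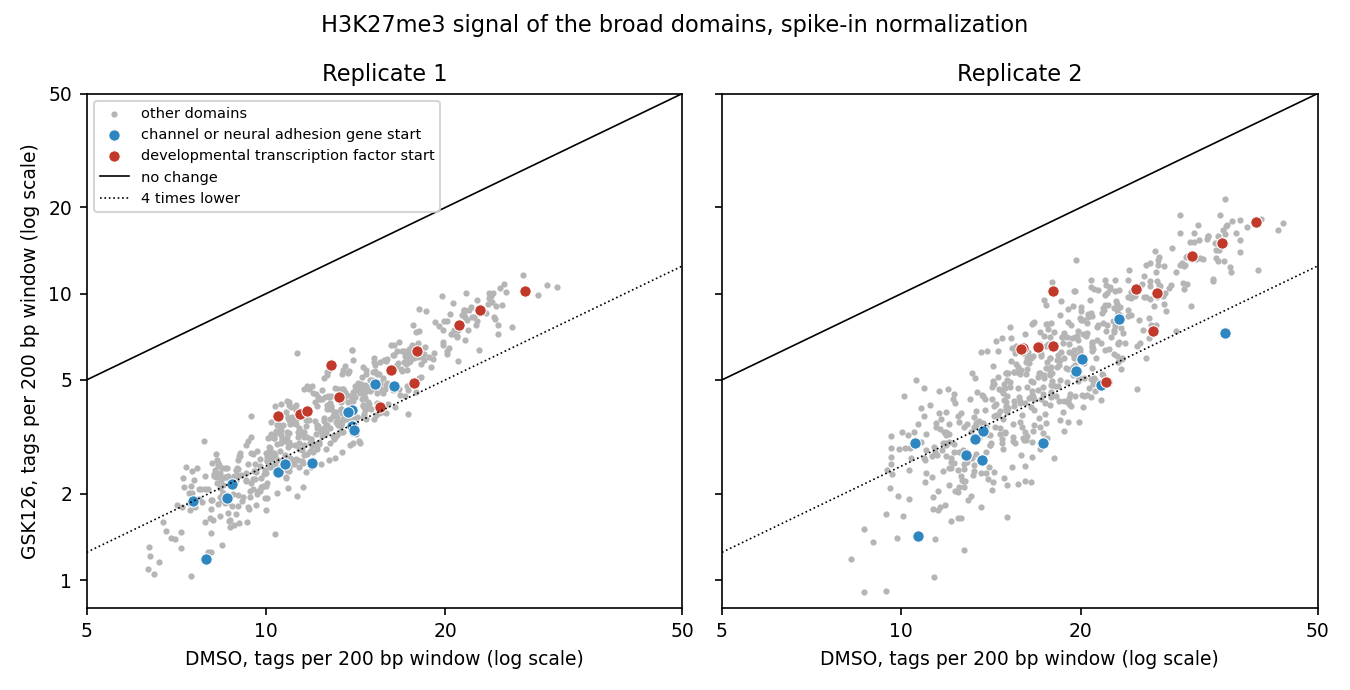
H3K27me3 density of each domain with GSK126 (y axis, tags per window, log scale) against DMSO (x axis, log scale) in the spike-in normalization, 1 panel per replicate. Points are domains, coloured where they hold the start of a listed gene, and all 603 lie below the line of no change in both panels.

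The change varied between domains in the same way in both replicates. In the spike-in normalization the 10th and 90th percentiles were -2.22 and -1.39 in replicate 1, and -2.42 and -1.14 in replicate 2. Across the 603 domains the changes in replicates 1 and 2 had a Pearson r of 0.93 and differed by a median of 0.16. The domains are neighbours on the same chromosomes and share their libraries, so this correlation is a description. Domains that were denser with DMSO lost less. When domains were ranked by the DMSO density of replicate 1 and split into 3 groups of 201, their median log2 changes in replicate 2 were -2.04, -1.73 and -1.39 from the least to the most dense. Ranked by replicate 2 and read in replicate 1, the changes were -1.97, -1.80 and -1.57. Ranking in the other replicate keeps the noise of a library from entering both sides. Windows outside islands add nothing to the density. GSK126 spike-in islands covered 76.9% of the least dense group in replicate 2 and 72.9% in replicate 1. In the most dense group they covered 94.3% and 93.1%. The part of this in the order was not tested. The order was the same in the standard lists. There the changes were 0.37, 0.59 and 0.95 in replicate 2, and 0.23, 0.37 and 0.57 in replicate 1.

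The same order was found for CpG density. The domains had on average 3.69 CpGs per window, compared to 3.07 in shorter shared islands and 1.97 over the genome. In the 201 domains with the fewest CpGs the median log2 change was -1.96 and -2.02, in the middle group -1.75 and -1.68, and in the group with the most -1.55 and -1.36. CpG density and DMSO density rose together, and within each of the 3 groups of DMSO density the CpG-richer domains lost less than the CpG-poorer ones in both replicates. In the least dense group the change was -2.20 against -1.91 in replicate 2 and -2.04 against -1.91 in replicate 1. The CpG-richer domains were also denser with DMSO in each of these groups, most of all in the densest one, with 27.1 against 22.8 tags per window in replicate 2 and 18 against 16.4 in replicate 1, so the groups did not fully separate these measures. In the most dense group the change was -1.52 against -1.27 in replicate 2 and -1.64 against -1.47 in replicate 1. Across domains the Spearman rho of the change with CpG density was 0.55 and 0.53, with DMSO density of the other replicate 0.59 and 0.56, and with length 0.31 and 0.28, all of them descriptive.

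The domains lay preferentially near chromosome ends, which the rule did not use. Within 5 Mb of an end lay 250 domains (41.5%), compared to 16.6% of the shorter shared islands and 7.75% of the genome. The 119 domains within 2.5 Mb of an end had a median log2 change of -1.55 and -1.38, and the 202 domains over 20 Mb from an end had -1.97 and -1.99. The former were also richer in CpGs, with 5.09 per window against 2.88, and denser with DMSO, with 16.9 and 24.1 tags per window against 10.6 and 15.0. By chromosome, the density of domains was highest on chromosomes 20 and 22, with 7.46 and 7.21 per 10 Mb. Chromosomes 4, 21 and X had 0.419, 0.208 and 0.0644 per 10 Mb, the last being a single domain.

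**Figure D4:**
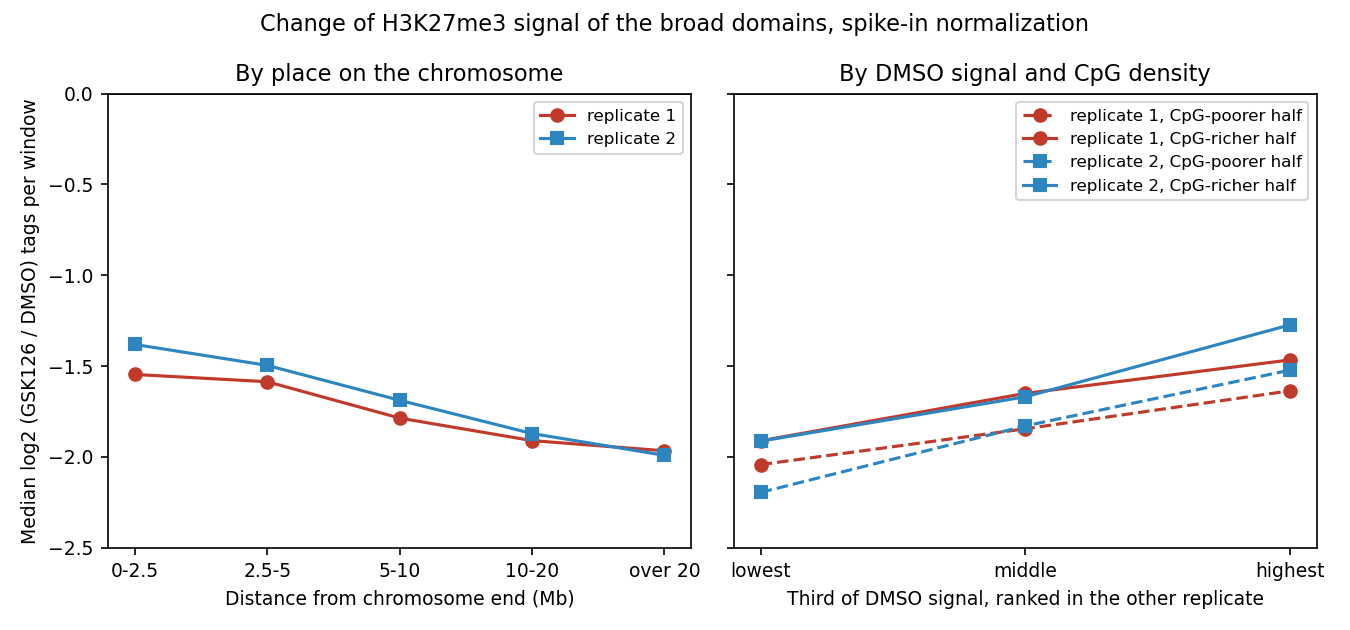
Median log2 ratio of GSK126 to DMSO density (y axis) by distance from the chromosome end (left, Mb) and by the 3 groups of DMSO density split at the middle by CpG density (right), for each replicate. From the ends inwards the medians run from -1.55 to -1.97 in replicate 1, with -1.38 and -1.99 at the same places in replicate 2.

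Gene starts were about as frequent in the domains as in the genome and less frequent than in shorter islands. The starts of 268 protein-coding genes lay in a domain, or 6.80 per Mb, compared to 13.0 per Mb in the shorter shared islands and 6.50 per Mb over the genome. No such start lay in 410 domains, 1 in 140 and 2 or more in 53. Of the 410 domains, 204 overlapped the body of a protein-coding gene and 206 did not, and 142 domains lay wholly inside a single gene. The domains with 4 or more starts, named here after their values were seen, held clustered or neighbouring genes. They were those of the CD300 receptors, of the BPIFB family, of EPHA8 with C1QA and C1QC, of CDHR1 with LRIT1 and LRIT2, and of GBX1 with ASB10. Domains with a gene start had a median log2 change of -1.81 and -1.77, and those without one had -1.77 and -1.69.

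Of the gene lists, developmental transcription factors and genes of neural membranes were represented. As the background, 1.33% of 20134 protein-coding genes started in a domain and 15.1% in a shorter island. In the list of homeobox clusters 5 of 45 genes started in a domain and 17 in a shorter island. For the paired, LIM and NKX class homeobox genes the numbers were 5 and 40 of 76, and for other developmental transcription factors 4 and 34 of 85 that were matched. The list of ion channels and neural adhesion genes had 13 and 44 of 91. Of signalling ligands and receptors 1 of 76, the BMP antagonist CHRD, started in a domain and 35 in a shorter island. None of the 42 housekeeping genes and none of the 28 genes for PRC2 and PRC1 subunits started in any island of the list. With GSK126, the starts of 226 and 230 of the 268 genes in domains remained covered in the spike-in lists, compared to 1507 and 1524 of the 3047 genes that started in a shorter island.

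Among the domains of developmental transcription factors, that of IRX4, a homeobox gene of heart development, was the longest of its list at chr5:1830601-1954800 with 124.2 kb. Its density was 27.2 and 39.5 tags per window with DMSO, and 10.2 and 17.7 with GSK126. The change of -1.41 and -1.15 was smaller than the median of all domains in both replicates. A domain of 60.6 kb at chr2:177002801-177063400 covered the starts of HOXD1, HOXD3 and HOXD4, which pattern the body axis. There the density was 11.4 and 16 with DMSO, and 3.79 and 6.46 with GSK126, a log2 change of -1.59 and -1.31. The HOXD genes on the other side of it, HOXD8 to HOXD13, started in separate islands of 9 kb to 18.8 kb. The domain of HOXB13, a gene of posterior tissues, changed by -1.59 and -1.38.

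EN2, which patterns the midbrain and hindbrain, had the longest domain of the paired and LIM homeobox list at chr7:155201001-155392200 with 191.2 kb. The density was 21.1 and 30.7 tags per window with DMSO, and 7.76 and 13.5 with GSK126. With GSK126 97.6% and 99.3% of it stayed covered, and in replicate 2 this was a single island of 189.8 kb. The domain of PAX2, a regulator of kidney development, had 12.9 and 18 tags per window with DMSO, and 5.62 and 10.2 with GSK126. Its change of -1.19 and -0.82 was the smallest of the listed transcription factors. The domain of TLX1 changed by -1.49 and -1.30, and that of GBX1 by -1.50 and -1.42.

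Of the remaining transcription factors, BHLHE23, SOX8, GATA5 and NEUROG3 started in a domain. The domain of BHLHE23, a basic helix-loop-helix factor, was 125.2 kb long at chr20:61583001-61708200 and changed by -1.38 and -1.20. The domain of SOX8 changed by -1.58 and -1.25, that of GATA5, which acts in heart and gut, by -1.86 and -1.84, and that of NEUROG3, which specifies endocrine cells, by -1.61 and -1.46. The domain of CHRD changed by -1.64 and -1.79. The median of the mean changes was -1.45 for the homeobox clusters, -1.40 for the paired, LIM and NKX class list and -1.47 for the other factors, beside -1.78 for all gene starts in domains. Of these genes, 5 of 5, 4 of 5 and 3 of 4 had a domain that fell by less than the median domain in both replicates. HOXD1, HOXD3 and HOXD4 share a domain, so their values are not independent.

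The domains of channels and neural adhesion genes mostly fell by more than the median domain, 12 of 13 in replicate 1 and 12 of 13 in replicate 2, with GRM4 as the exception in both. The cadherin gene CDH22 started, together with CD40, in the domain chr20:44739201-44974200 of 235 kb. There the density was 13.7 and 19.6 tags per window with DMSO and 3.87 and 5.37 with GSK126, a log2 change of -1.83 and -1.87. The domain of GRM4, a glutamate receptor gene, had 15.2 and 23.2 with DMSO and 4.84 and 8.14 with GSK126, a change of -1.65 and -1.51. The calcium channel gene CACNA1G had 14.1 and 22.1 with DMSO and 3.34 and 4.91 with GSK126. KCND3 changed by -2.23 and -2.52, and HCN4, the channel of the cardiac pacemaker, by -2.02 and -2.10. The median over the 13 genes was -2.09.

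CCND2 encodes cyclin D2, a regulator of entry into the cell cycle. Its start lay in the domain chr12:4377601-4425400 of 47.8 kb, where the density was 13.4 and 19.0 tags per window with DMSO and 5.24 and 7.98 with GSK126. The log2 change was -1.31 ± 0.0748 (SD, n = 2). GSK126 spike-in islands covered 81.2% and 82.9% of it, each time as a single island, of 38.8 kb and 39.6 kb.

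The longest domain, chr11:113792201-114139200, was 347 kb long and held the starts of HTR3A, a serotonin receptor gene, and of ZBTB16, a transcriptional repressor gene. Its density was 10.9 and 15.3 tags per window with DMSO and 3.68 and 5.84 with GSK126. It was covered over 87.2% and 88.7% with GSK126 in the spike-in lists, but by 23 islands in replicate 1 and by 8 in replicate 2, the longest of 31.4 kb and 174 kb. The domain chr17:77083201-77341400 of 258.2 kb lay over RBFOX3, which encodes the neuronal splicing factor NeuN, and changed by -1.25 and -0.94, less than the other 9 of the 10 longest domains. The domain of LINGO1, a neural membrane protein, was 232.8 kb long and changed by -1.65 and -1.53. That of the calcium pump gene ATP2B2 was 214 kb long and changed by -1.72 and -1.63. A domain of 198.2 kb inside CACNA1C, which encodes a cardiac and neuronal calcium channel, held no start and changed by -1.96 and -2.25, more than the other 9. The domain of ESRRB, a nuclear receptor gene, changed by -1.83 and -1.89, that of IGSF9B and JAM3, both adhesion genes, by -1.55 and -1.42, and that of CRHR1, SPPL2C and MAPT by -1.70 and -1.61. With GSK126 these 10 domains kept between 81.6% and 98.8% of their cover in replicate 1 and replicate 2 except for that of EN2, described above, with 99.3% in replicate 2.

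The domains with the lowest mean cover with GSK126 were all under 50 kb long. The lowest, chr14:75799201-75847000, overlapped no protein-coding gene and kept 33.1% and 33.9% of its cover. Its density was 7.48 and 9.41 tags per window with DMSO, and 1.04 and 0.915 with GSK126. The domain of CACNA1I, chr22:39930401-39971600, kept 30.1% and 40.3%, with a density of 7.94 and 10.7 with DMSO and 1.18 and 1.43 with GSK126. That of CEACAM18 and SIGLEC12, genes of the immunoglobulin superfamily, at chr19:51975801-52016600 kept 44.6% and 27.5%, one in DPP6 kept 39.9% and 34.1%, and chr7:4484601-4531600 kept 45.96% and 29.8%. In the standard lists too, the density of each of these 5 was lower with GSK126 in both replicates, with log2 changes from -0.75 to -0.22. For comparison, 43 of the 603 domains were lower in both replicates there.

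The domains with the highest cover were kept whole or nearly so. The domain chr8:47085001-47175400 was covered over 100% in both replicates, each time by a single island, and had 11.3 and 17.9 tags per window with DMSO and 6.20 and 11.0 with GSK126. It lies 246.2 kb from an assembly gap of 1 Mb or more. A domain of 44.2 kb in PRDM16, a transcription factor gene of brown fat and heart, was likewise covered over 100% in both replicates, with 21.6 and 34.2 tags per window with DMSO and 10.1 and 18.8 with GSK126. PRDM16 carried further domains of 94.6 kb and 87 kb directly before it on the chromosome, and these changed by -1.01 and -0.64, and by -1.09 and -0.85. In DMSO replicate 2 both lay in the same island of 183.4 kb and were given its density of 29.3 tags per window. Their changes in replicate 2 are therefore not independent. The other domains with the highest cover were chr7:444601-487600, a domain in TAFA5, a secreted protein gene, and chr22:48806401-48862400, each covered over at least 99.6% in both replicates.

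The last question was how much H3K4me3 the domains held and whether it changed with GSK126. With DMSO, 134 domains in replicate 1 and 113 in replicate 2 overlapped an H3K4me3 island, or 20.5% ± 2.46 (SD, n = 2). Of all 35901 islands 7.87% and 5.75% did so, but a longer region overlaps more readily. By length H3K4me3 covered 1.15% and 0.572% of the domains and 2.54% and 1.20% of the shorter shared islands. Of the 268 gene starts in domains 41 and 35 lay in an H3K4me3 island, compared to 63.0% and 60.3% of all protein-coding gene starts. The 94 domains with H3K4me3 in both DMSO libraries had a median log2 change of H3K27me3 density of -1.80 and -1.77, and the 450 domains without it in either had -1.78 and -1.72.

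**Figure D5:**
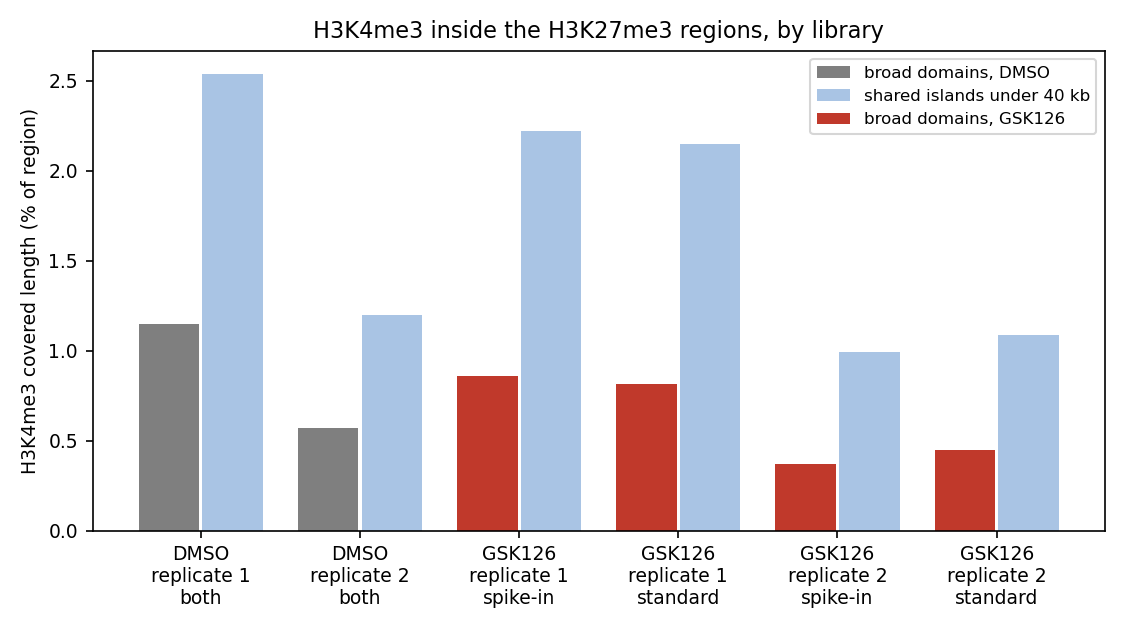
Share of length covered by H3K4me3 islands (y axis, percent) in the domains and in shared islands under 40 kb, by library and list (x axis); each bar is 1 library. Domain values are 1.15% and 0.572% with DMSO and 0.813% and 0.448% with GSK126 in the standard lists.

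H3K4me3 inside the domains decreased with GSK126. In the standard lists its covered length changed by -0.50 and -0.35 on the log2 scale, or -0.43 ± 0.105 (SD, n = 2), and in the spike-in lists by -0.43 and -0.62. The change was larger than the spread between replicates in both. Over the whole genome H3K4me3 changed by -0.27 and -0.10 in the standard lists, so part of the decrease was common to all regions. In the same domains the log2 change of H3K27me3 cover in the standard lists was -0.02 and -0.04. That cover was already 99.7% and 97.7% with DMSO, so it had little room to rise. The median log2 change of H3K27me3 density in these lists was 0.38 and 0.66. No test between the marks is given, because the H3K27me3 cover of DMSO replicate 1 was tied to the selection. By the standard lists, 51 of 603 domains had less H3K4me3 with GSK126 in both replicates and 6 had more. Of all 35901 islands 685 (1.91%) had less and 177 (0.493%) had more, and these islands are mostly shorter than the domains. Outright change was rare, since 4 domains had H3K4me3 in both DMSO and in neither GSK126 library, and 2 had the opposite pattern.

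The domain with the most H3K4me3 was chr12:34438601-34560400, which overlaps no protein-coding gene and lies 296.4 kb from an assembly gap of 1 Mb or more. It had 16.8 kb and 6 kb of H3K4me3 with DMSO, and 12 kb and 5 kb with GSK126 in the standard lists. SMARCD3, a subunit gene of a chromatin remodelling complex, had 13 kb and 8.4 kb with DMSO and 10.6 kb and 5.2 kb with GSK126. The domain of MAFA, a factor of insulin-producing cells, had 13.4 kb and 8.6 kb with DMSO and 10.2 kb and 7.4 kb with GSK126, and that of NFIX had 13 kb and 6 kb, and then 8.6 kb and 5.4 kb. The largest loss was at the amino acid transporter genes SLC6A19 and SLC6A18, at chr5:1130601-1267400, from 9.4 kb and 9 kb to 4.4 kb and 4 kb. LIMS2 with GPR17 went from 7.4 kb and 3 kb to 5.2 kb and 1 kb, and PVALB from 2.4 kb and 2.6 kb to 0.4 kb and 0 kb. The largest gains were small. That of KIF26B, a kinesin family gene, rose from 4.8 kb and 3.6 kb to 5 kb and 4.2 kb, and the domain in MAP2K3, a kinase gene, from 7.4 kb and 1 kb to 8 kb and 2 kb. TEX51 went from 0 kb in both to 1 kb and 0.6 kb, the domain in LDLRAD4 from 0 kb in both to 1.2 kb and 0.6 kb, and the domain in IQSEC3 from 0.8 kb and 0 kb to 1.4 kb and 1.2 kb. In the spike-in lists the gain held in both replicates for the domain in LDLRAD4, with 1.2 kb and 0.4 kb, and for that of KIF26B, with 6.4 kb and 3.8 kb. It did not hold in both for the other 3, and the domain in IQSEC3 was at 0 kb in both. The losses named here held in both replicates in the spike-in lists.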

How the data were processed

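PC9 cells were analysed by ChIP-seq for H3K27me3 and H3K4me3, with 2 libraries for each mark and treatment. According to the study's methods, tags of 50 nt were aligned with BWA to hg19 and to the fly genome, duplicates and tags with a mapping quality of 25 or less were dropped, and human tags were removed at random to give the standard and spike-in versions. Islands were then called per library by SICER 1.1 (random background model, E-value 1). The window was 200 bp, and the gap was 600 bp for H3K27me3 but 200 bp for H3K4me3. The processing notes name SAMtools 0.1.18. The authors deposited 14 lists, whose values are the SICER score of each island. H3K4me3 with DMSO had a single list per replicate, which served for both normalizations. The lists give no tag counts, so no counting interval was computed.

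Covered length, overlap and CpG content were computed in windows of 200 bp with Python 3.11.15 and NumPy 2.4.6, and genes were those of GENCODE 44 mapped to GRCh37. Tag density per H3K27me3 list was solved from scores of the shortest islands with SciPy 1.17.1. The score per window was then converted to the constant Poisson density that gives it, with a window p-value of 0.2, the caller's default, which is not given in the sources used here. Both steps were tested on simulated windows without island calling, so the effect of island calling on the density was not tested. Plots were drawn with Matplotlib 3.10.9.

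Groups came from the sample labels. Replicate numbers follow the order of the samples, and ratios were formed within a replicate because tags had been removed within it. The study calls its replicates biological. Domains named are the 10 longest, the 5 with the lowest and the 5 with the highest mean cover with GSK126, the 5 with the most H3K4me3, the 5 with the largest gain and the 5 with the largest loss of it, up to 6 of each gene list, and MYT1 and CCND2, the study's control loci. Other genes and domains were named after their values were seen. The domains and gene lists were chosen with earlier results of these data known. One marker on the list, PECAM1, was not matched. Alternatives in length limit, overlap, score threshold, defining library and comparison islands were tried. Some items that these rules name are not reported here.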

Additional observations from a re-analysis of the deposited data

How the results depend on the processing

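The direction of every main value was the same under each alternative that was run. Cover of the domains in the GSK126 spike-in lists (86.4%) was 83.5% with a length limit of 30 kb, 90.1% with 60 kb, 81.0% when DMSO replicate 2 defined the domains, 83.9% with a stricter score threshold and 92.6% when islands were joined across gaps of up to 5 kb. The log2 ratio of cover (-0.20) was -0.25, -0.14, -0.28 and -0.24 under the first 4 of these. In the standard lists, cover (96.6%) was 94.3% and the log2 ratio (-0.0307) was -0.0533 when DMSO replicate 2 defined the domains, and the ratio was -0.0172 with 60 kb. Domains with an island of at least 50% of their own length were 49.8%, compared to 33.4% with an island of 40 kb or more. The difference from shorter islands (45.5 percentage points) was 44.6 with an overlap of 50%, 43.9 from DMSO replicate 2, 52.3 with the stricter threshold, 15.9 against islands of 20 to under 40 kb and 10.7 against islands of like score per kb. Kept minus lost CpGs (1.14 per window) was 1.25 with 60 kb and 1.19 away from gene starts. Domains with H3K4me3 with DMSO (20.5%) were 25.7% with 60 kb, 13.8% with the stricter threshold and 17.7% with an island wholly inside. The median log2 change of density in the spike-in lists (-1.75), for which all alternatives were chosen after seeing the data, was -1.84 with 30 kb, -1.60 with 60 kb, -1.87 from DMSO replicate 2 and -1.69 with the minimum number of tags per window raised by 1.

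Without the replicate pairing, the log2 ratio of cover was -0.20 in the spike-in and -0.03 in the standard lists, that of H3K4me3 -0.49 and -0.45, and the median change of density -1.74 and 0.54. Leaving out each replicate gave the values of the other replicate, as printed with the results. The share of domains that kept an island of 40 kb or more was 26.9% in replicate 1 and 39.97% in replicate 2. The GSK126 spike-in lists hold 0.382 and 0.455 tags per window, so windows with few tags pass or fail by 1 tag there, and cover below the limit does not show that the mark is absent.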
